A study of Mus musculus with 4 samples.

Results

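Oral ampicillin was compared directly with intravenous ampicillin in the day 4 fecal bacteria of C57BL/6J mice, measured by sequencing the 16S rRNA gene. All day 4 libraries that the deposited sample sheets list under ampicillin with the oral or the intravenous route were taken, 10 of the 198 libraries of the series. They comprise 5 oral and 5 intravenous libraries. Intravenous replicates 3 and 4 differed by no more than the sampling noise of their reads (chi-square per degree of freedom 1.24, p = 0.186) and were averaged and counted as 1 sample, which leaves 5 oral and 4 intravenous samples.

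The mice were 8 to 12 weeks old, and each dose held 2.5 mg of ampicillin in 100 µl of phosphate-buffered saline (PBS). Doses were given 2 times a day for 3 days, with a last dose on day 4 and euthanasia 4 h after it, by gavage into the stomach in the oral group and by injection into a vein in the intravenous group. The same schedule with PBS alone gave 5 oral PBS and 6 intravenous PBS samples. Routes and replicate numbers come from the sample sheets, the sheets list each library under a mouse of its own, and nothing in the sources says how the mice were caged.

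Ampicillin is a beta-lactam antibiotic that blocks the enzymes cross-linking the bacterial cell wall. Bacteria that make a beta-lactamase, or that build no wall, are known to withstand it. A gavaged drug meets the gut contents directly, whereas an injected drug reaches them through bile and across the gut wall. In mice the untreated fecal community is dominated by Bacteroidales, chiefly the family Muribaculaceae, and by Clostridia such as Lachnospiraceae.

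The values are percent of a library's reads, so each taxon is measured relative to all others and no total bacterial amount is known. The reads behind a library, recovered from the deposited values, numbered 6234 to 28586 in the oral libraries and 3621 to 29766 in the intravenous libraries. A taxon listed at 0 in an intravenous library could still make up as much as 0.0101% to 0.0829% of it (3 reads, counting error only). Oral replicates 1 to 3 and all intravenous libraries came from 1 sequencing run, and oral replicates 4 and 5 came from the other.

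In the oral libraries 2 stood apart. Burkholderia, which is known from soil, water and plants, includes opportunists and also turns up in extraction reagents, made up 89.0% of oral replicate 3 and 96.6% of oral replicate 5. In oral replicates 1, 2 and 4 it made up 0%, 0.171% and 0.323%, and in the intravenous samples it was listed at 0 apart from 0.0773% in replicate 5. The mean was 37.2 ± 50.8% in oral samples (SD, n = 5) and 0.0193 ± 0.0386% in intravenous samples (SD, n = 4; exact permutation p = 0.0794), and the log2 difference of 6.34 (limma adjusted p = 0.000514) was 2.30 without oral replicates 3 and 5 (adjusted p = 0.323). It reached at most 0.730% in 107 day 0 libraries and 0.0304% in 16 day 4 PBS libraries. Of the 65 day 4 libraries of other antibiotics and routes, 5 held over 1%: 3 of the oral mix of all 4 antibiotics (96.0%, 91.9% and 37.8%), 1 of intraperitoneal ampicillin (8.49%) and 1 of the intravenous mix (3.59%). Oral ampicillin replicates 3 and 5 were from different sequencing runs. Its origin was not tested, and each result below is given with all taxa and, where it matters, after Burkholderia was removed and the rest rescaled, which leaves 685 reads in oral replicate 3 and 803 in oral replicate 5.

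Genus by genus, the routes left different communities. Of 95 genera tested, 13 differed between oral and intravenous ampicillin (13.7%), of which 6 were higher (6.32%) and 7 lower (7.37%) in oral samples (limma on log2 of percent + 0.01 over all day 4 samples of the series, Benjamini-Hochberg adjusted p under 0.05). The higher ones were Burkholderia, Borkfalkia, an unclassified genus of the family CAG-552, Pelethenecus, COE1 and Bifidobacterium_388775. The lower ones were Parabacteroides_B_862066, Phocaeicola_A_858004, Bacteroides_H, UBA7173, unclassified Muribaculaceae, Ligilactobacillus and Parasutterella. Without Burkholderia 10 of 94 genera differed (10.6%), 6 higher (6.38%) and 4 lower (4.26%), and 9 of them were among the 13, all with an unchanged sign. With every library thinned to 1000 reads, 13 of 57 genera passed, 4 higher and 9 lower, and these are not all the same genera: COE1 dropped out (adjusted p = 0.126), Burkholderia and Bifidobacterium_388775 were not among the 57, and Muribaculum (adjusted p = 0.0345), Duncaniella (adjusted p = 0.0351) and unclassified Lachnospiraceae (adjusted p = 0.0424) came in. Without oral replicates 3 and 5, a setting chosen after seeing the data, 10 genera differed, 5 in each direction, and Burkholderia, COE1, Bifidobacterium_388775, Ligilactobacillus and Parasutterella no longer passed (adjusted p of 0.0612 to 0.323). Within run ok122 alone 13 passed, 8 higher and 5 lower: unclassified Muribaculaceae (adjusted p = 0.103) and Ligilactobacillus (adjusted p = 0.0615) dropped out, and CAG-314 (adjusted p = 0.0208) and unclassified Lachnospiraceae (adjusted p = 0.0359) came in. The p-values rest on a spread shared by all 18 day 4 groups: a fit to the 9 ampicillin samples alone called 2 genera, Parabacteroides_B_862066 (adjusted p = 0.0163) and UBA7173 (adjusted p = 0.0338), both lower in oral samples.

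**Figure D1:**
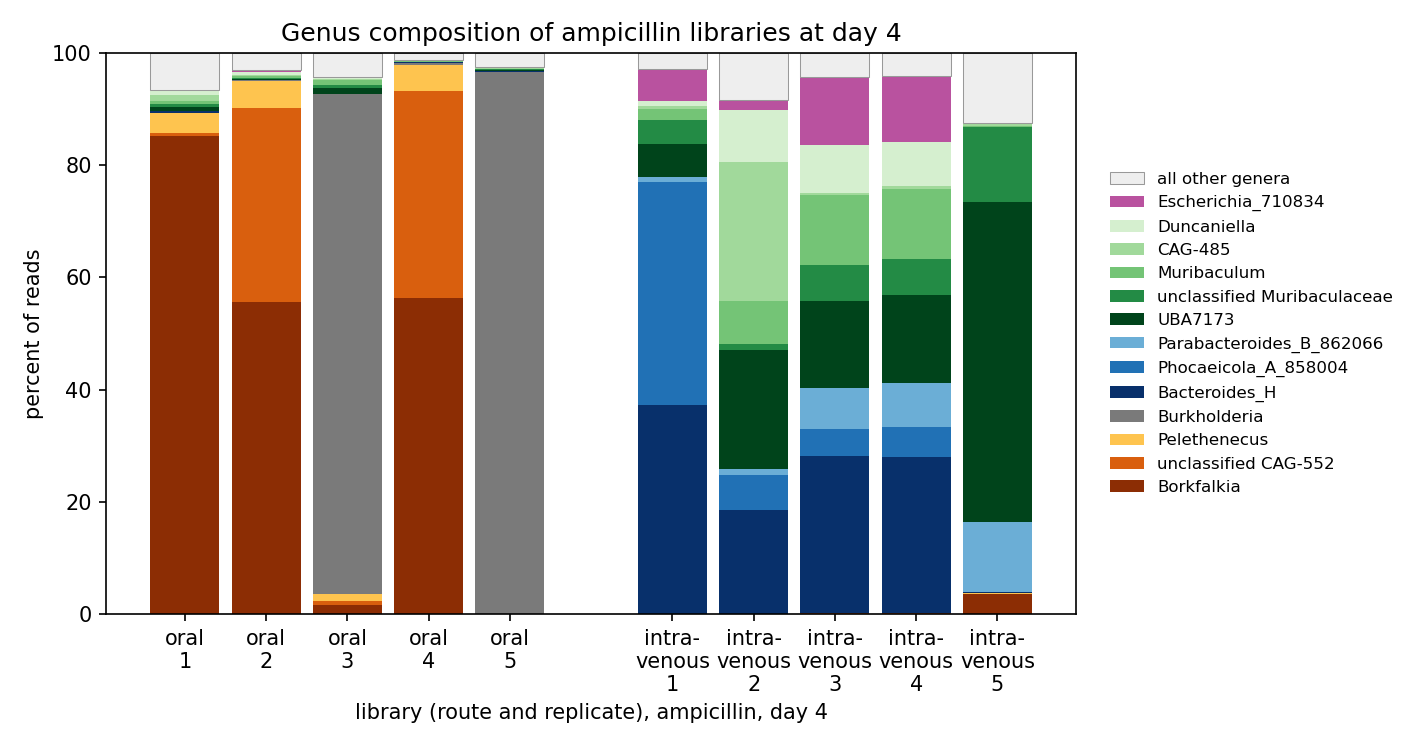
Each bar is a library of day 4 ampicillin (oral replicates 1 to 5 at left, intravenous replicates 1 to 5 at right), and its segments are the percent of reads in 13 genera and in all others. Oral replicates 1, 2 and 4 are mostly Borkfalkia and CAG-552, oral replicates 3 and 5 are mostly Burkholderia, and the intravenous libraries are mostly Bacteroides_H, Phocaeicola_A_858004, Parabacteroides_B_862066 and Muribaculaceae genera.

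Borkfalkia led the oral community in 3 mice. It is a genus of Clostridia with a species that bloomed in human feces after ceftriaxone, another beta-lactam. Its share was 85.2%, 55.6%, 1.67%, 56.4% and 0% in oral replicates 1 to 5, against 0%, 0%, 0.0498% and 3.59% in the intravenous samples (replicate 1, replicate 2, the average of 3 and 4, and replicate 5). The groups overlap, because oral replicate 5 held none and oral replicate 3 lay below intravenous replicate 5. The difference was 6.30 ± 1.77 on the log2(percent + 0.01) scale (limma, standard error, adjusted p = 0.00591), and it missed the threshold without intravenous replicate 1 (adjusted p = 0.0611) or replicate 2 (adjusted p = 0.0509). In PBS mice Borkfalkia was a minor member, at 0.136 ± 0.0868% by mouth (SD, n = 5) and 0.187 ± 0.110% by vein (SD, n = 6). Borkfalkia is a single unclassified taxon in the table, so species cannot be told apart.

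The unclassified genus of CAG-552, another family of Clostridia known mainly from genome sequences, made up 0.522%, 34.5%, 0.626%, 36.8% and 0% of oral replicates 1 to 5. In the intravenous samples it was 0%, 0%, 0.0450% and 0.0504%. The 4 oral samples that held it were all above every intravenous sample, and oral replicate 5 held none (log2 difference 5.80 ± 1.33, limma adjusted p = 0.000840). It accompanied Borkfalkia in oral replicates 2 and 4, whose communities were nearly the same (Bray-Curtis distance 0.0370), but not at that level in oral replicate 1. Oral replicates 2 and 4 came from different sequencing runs.

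Pelethenecus belongs to Anaeroplasmataceae, a family whose cultured members have no cell wall. It made up 3.50%, 4.84%, 1.33%, 4.66% and 0.0171% of oral replicates 1 to 5, against 0.0831%, 0%, 0.0156% and 0.0168% in intravenous samples. In 4 of 5 oral samples it was above every intravenous sample, and oral replicate 5 overlapped them. The difference was 5.45 ± 1.13 on the log2 scale (limma adjusted p = 0.000514), it held without each sample in turn (log2 4.95 to 6.83), and without Burkholderia it was 6.93 ± 1.17 (adjusted p = 6.5e-06). After removal of Burkholderia, Pelethenecus made up 12.1% of oral replicate 3 and 0.498% of oral replicate 5, both above every intravenous sample.

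CAG-314, a further genus of Clostridia, did not pass the test with all taxa (log2 2.65, limma adjusted p = 0.143) but did without oral replicate 5 (log2 3.85, adjusted p = 0.0149). It averaged 0.637 ± 0.653% in oral samples (SD, n = 5) and 0.0515 ± 0.0441% in intravenous samples (SD, n = 4).

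With all taxa COE1 and Bifidobacterium_388775 were higher in oral samples at low levels. COE1, a genus of Lachnospiraceae, was at 0.118%, 0.294%, 0.241%, 0% and 0.193% in oral replicates 1 to 5 and listed at 0 in every intravenous library (limma adjusted p = 0.0205). Bifidobacterium_388775, a fermenter of plant and milk sugars, was at 0.0154%, 0.119%, 0.128%, 0% and 0.0984% in oral samples and listed at 0 in every intravenous library (limma adjusted p = 0.00591). These levels lie near the limit that 0 reads allow in the shallowest intravenous library, 0.0829%. The COE1 call was lost without oral replicate 2 (adjusted p = 0.0703), without oral replicate 3 (adjusted p = 0.0609), without intravenous replicate 1 (adjusted p = 0.0610) and after thinning to 1000 reads (adjusted p = 0.126). Once Burkholderia was removed, oral replicates 3 and 5 held 2.19% and 5.60% COE1 and 1.17% and 2.86% Bifidobacterium_388775. The log2 differences were then 5.10 for COE1 (limma adjusted p = 0.00355) and 4.02 for Bifidobacterium_388775 (adjusted p = 0.00166).

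Lachnospiraceae, the butyrate-forming family of Clostridia to which COE1 belongs, was seen on the oral side only. The family made up 0.860%, 0.885%, 1.14%, 0.0255% and 1.0% of oral replicates 1 to 5, from 168, 253, 71, 3 and 234 reads. It was listed at 0 in all 5 intravenous libraries, which hold 71792 reads together, so the pooled share could be up to 0.00418% (3 reads). As listed, all oral samples lie above all intravenous samples (limma adjusted p = 0.00211), and the call held in the fit to the 9 ampicillin samples alone (adjusted p = 0.010). Oral replicate 4, at 0.0255%, is below the 0.0829% that 0 reads allow in intravenous replicate 2. Of 27 Lachnospiraceae genera tested, 17 were present in an oral sample and 0 in an intravenous sample, against 59 and 26 of all 95 genera tested. By genus 1 of the 27 was higher and 0 were lower, against 6 and 7 of all 95 genera, with a median log2 difference of 0.44 against 0 over all genera. Both medians include genera absent from every ampicillin sample, whose difference is 0 (34 of the 95). Over the 61 genera of any family present in an ampicillin sample the median was 0.455. In PBS mice the family averaged 9.08% by mouth and 4.74% by vein, above every ampicillin sample of the same route with all taxa. Without Burkholderia the family made up 10.4% of oral replicate 3 and 29.1% of oral replicate 5, above the oral PBS mean. The difference between ampicillin routes was then 7.26 on the log2 scale (limma adjusted p = 0.000183).

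Most reads of the intravenous samples and few of the oral ones were Bacteroidota, the phylum of the Bacteroidales. The phylum Bacteroidota made up 7.54%, 2.12%, 4.52%, 0.799% and 2.09% of oral replicates 1 to 5, against 92.5%, 95.4%, 86.7%, 87.2% and 93.4% of the intravenous libraries. The groups are far apart, with means of 3.42 ± 2.67% in oral samples (SD, n = 5) and 92.1 ± 3.63% in intravenous samples (SD, n = 4), and the exact two-sided permutation test gave p = 0.0159, the smallest that 126 relabellings allow. Adjusted over 11 phyla this exact permutation p was 0.0873, and 0 of the 11 phyla passed at 0.05 (0%), while 3 had an unadjusted p below it. Without Burkholderia the oral shares were 7.54%, 2.13%, 41.2%, 0.802% and 60.9%, still below every intravenous library (exact p = 0.0159, adjusted p = 0.0582). The Clostridia phylum Firmicutes_A made up 88.6%, 92.2%, 3.95%, 94.2% and 1.03% of oral libraries with all taxa, overlapping intravenous replicate 5 at 3.75% (exact p = 0.0317, adjusted p = 0.116). Without Burkholderia it made up 88.6%, 92.3%, 35.9%, 94.5% and 29.9% of oral libraries and at most 3.75% of any intravenous library (exact p = 0.0159, adjusted p = 0.0582).

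Parabacteroides_B_862066, a polysaccharide-degrading gut genus of the family Tannerellaceae, had the largest difference among the lower genera with all taxa; without Burkholderia and within run ok122 alone Phocaeicola_A_858004 differed more. It was at 0.0409%, 0%, 0.0642%, 0% and 0.0342% in oral replicates 1 to 5, against 0.972%, 1.19%, 7.52% and 12.4% in intravenous samples. With all taxa no oral sample reached the lowest intravenous sample (log2 difference −6.86 ± 1.54, limma adjusted p = 0.000771). Groups that do not overlap were seen for 3 of 95 genera (3.16%), the other two being UBA7173 and unclassified Muribaculaceae. Without Burkholderia all 3 overlapped, Parabacteroides_B_862066 through oral replicate 5 at 0.996%, and Pelethenecus was the 1 genus of 94 whose groups did not overlap (1.06%). Without any single sample the difference lay between −7.44 and −6.22 with adjusted p of at most 0.00551, and without Burkholderia it was −5.36 ± 1.60 (adjusted p = 0.0164). PBS mice held 0.0453 ± 0.0218% by mouth (SD, n = 5) and 0.0325 ± 0.0223% by vein (SD, n = 6), so the oral ampicillin samples lie in the PBS range or at 0 and the intravenous ones above it.

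Bacteroides_H and Phocaeicola_A_858004 are members of Bacteroidaceae, a family in which beta-lactamases are common. Bacteroides_H was at 0.384%, 0.0490%, 0.0481%, 0.170% and 0.150% in oral replicates 1 to 5 and at 37.1%, 18.6%, 28.0% and 0.185% in intravenous samples. Intravenous replicate 5 overlapped the oral samples, while the other three were far above them (log2 −5.90 ± 1.52, limma adjusted p = 0.00311). Phocaeicola_A_858004, in the intravenous samples mostly the species vulgatus, was at 0.0563%, 0%, 0%, 0% and 0.0856% in oral samples and at 39.8%, 6.16%, 5.10% and 0% in intravenous samples. Intravenous replicate 5 again fell with the oral samples (log2 −6.36 ± 1.75, limma adjusted p = 0.00564), and the Phocaeicola_A_858004 call was lost without intravenous replicate 1 (adjusted p = 0.0836). Without Burkholderia the log2 differences were −4.35 for Bacteroides_H and −5.42 for Phocaeicola_A_858004 (limma adjusted p = 0.0458 for each). Oral replicate 5 then held 4.36% and 2.49% of these genera, above intravenous replicate 5 at 0.185% and 0%. In PBS mice Bacteroides_H averaged 0.553 ± 0.20% by mouth (SD, n = 5) and 0.411 ± 0.417% by vein (SD, n = 6).

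The Bacteroidaceae also contain Prevotella, a fiber-degrading genus that did not follow the other two. With all taxa Prevotella averaged 0.950 ± 0.783% in oral samples (SD, n = 5) and 1.70 ± 1.85% in intravenous samples (SD, n = 4), with a log2 difference of 0.30 ± 1.40 (limma adjusted p = 1) whose sign turned without some samples. Without Burkholderia the oral mean, 6.76 ± 9.38% (SD, n = 5), was above the intravenous mean of 1.70% (log2 1.91, limma adjusted p = 0.702). With all taxa both ampicillin means lay below those of PBS mice, which held 22.3 ± 9.37% by mouth (SD, n = 5) and 15.8 ± 17.2% by vein (SD, n = 6). By vein the samples overlapped: ampicillin replicate 2 (3.62%) and the average of 3 and 4 (2.95%) exceeded PBS replicates 3 (2.69%) and 6 (2.73%). Intravenous ampicillin replicates 1 (0.199%) and 5 (0.0470%) lay below every intravenous PBS sample. Without Burkholderia, oral replicate 5 held 22.5% Prevotella. As a family, Bacteroidaceae made up 2.71%, 0.640%, 0.946%, 0.383% and 1.0% of oral libraries and 77.1%, 28.3%, 35.9%, 36.1% and 0.232% of intravenous libraries. That family difference passed with all taxa (log2 −3.67, limma adjusted p = 0.0196) but not without Burkholderia (log2 −2.06, adjusted p = 0.257), where the family reached 29.4% of oral replicate 5. It was also lost within run ok122 alone (adjusted p = 0.0914) and without oral replicate 4 (adjusted p = 0.0555), intravenous replicate 1 (adjusted p = 0.149), replicate 2 (adjusted p = 0.0921) or the averaged replicates 3 and 4 (adjusted p = 0.0927).

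**Figure D2:**
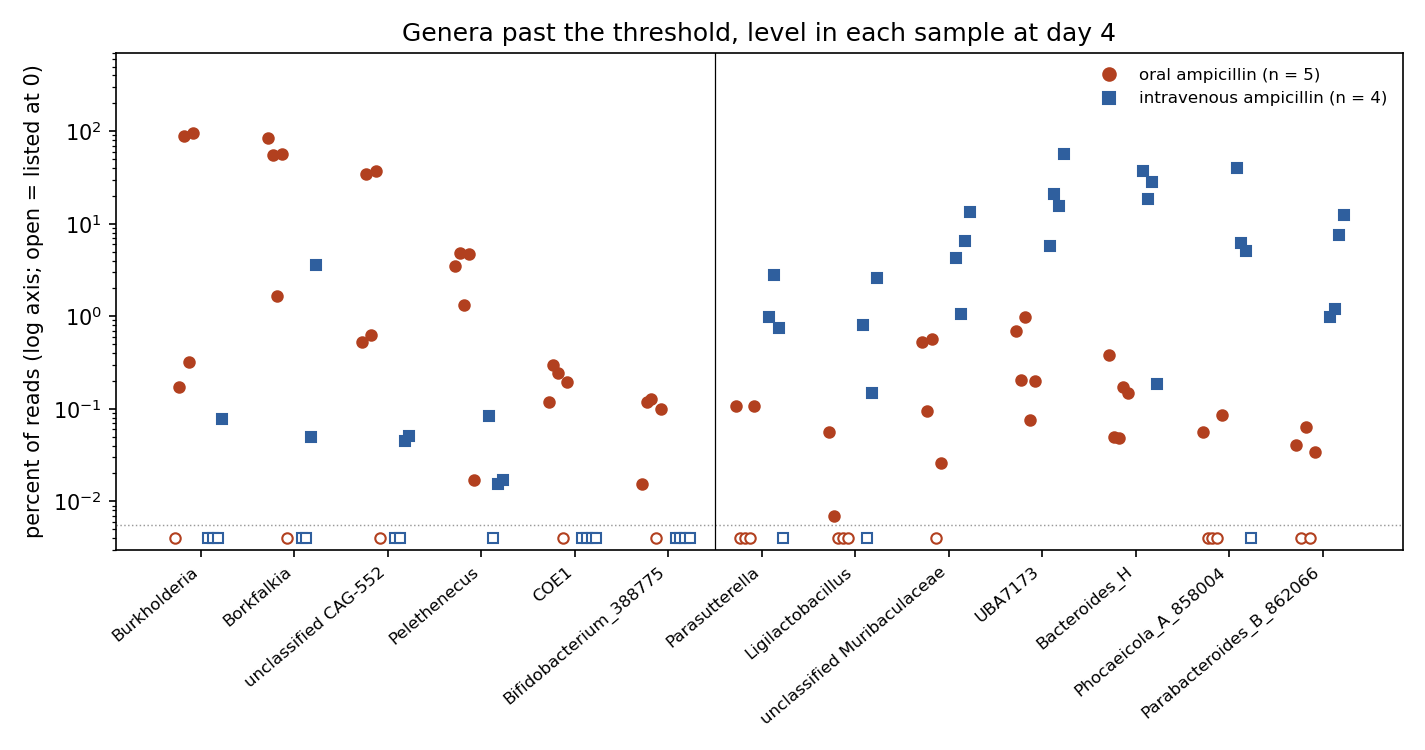
The percent of reads (log axis) of each of the 13 genera that passed the threshold, with a filled symbol per sample (circles, oral ampicillin, n = 5; squares, intravenous ampicillin, n = 4) and open symbols for samples listed at 0. The 6 genera left of the line were higher and the 7 right of it lower in oral samples, and only Parabacteroides_B_862066, UBA7173 and unclassified Muribaculaceae have no overlap between routes with all taxa.

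Muribaculaceae, the main Bacteroidales family of the mouse gut, made up 4.64%, 1.48%, 3.32%, 0.332% and 0.809% of oral replicates 1 to 5 and 14.4%, 65.5%, 43.6%, 43.2% and 80.8% of the intravenous libraries. No oral library reached the lowest intravenous one (log2 −4.88, limma adjusted p = 0.00331). Of its 8 genera tested, 0 were higher and 2 were lower in oral samples (0 lower without Burkholderia), against 6 higher and 7 lower of all 95, and the median log2 difference was −3.12 against 0 over all 95 genera. PBS mice averaged 60.6% by mouth and 71.7% by vein. Without Burkholderia the family was 30.2% of oral replicate 3 and 23.5% of oral replicate 5, both above intravenous replicate 1, and the difference missed the threshold (log2 −3.27, adjusted p = 0.0748), as it did within run ok122 alone (log2 −3.90, adjusted p = 0.0572).

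UBA7173, a Muribaculaceae genus known from genome sequences, was at 0.686%, 0.203%, 0.979%, 0.0765% and 0.201% in oral samples, against 5.76%, 21.1%, 15.6% and 57.0% in intravenous samples. All oral samples were below all intravenous samples (log2 −5.89 ± 1.5, limma adjusted p = 0.00311), and without Burkholderia, which puts oral replicates 3 and 5 at 8.91% and 5.85%, the difference was −4.30 ± 1.53 (adjusted p = 0.0532). Reads of Muribaculaceae not classified to a genus were at 0.532%, 0.0945%, 0.561%, 0% and 0.0257% in oral samples and at 4.25%, 1.05%, 6.5% and 13.4% in intravenous samples. These groups did not overlap either (log2 −5.44 ± 1.44, limma adjusted p = 0.00386), with −3.92 ± 1.46 (adjusted p = 0.0621) once Burkholderia was removed.

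Other Muribaculaceae genera did not pass the test. Muribaculum averaged 0.388 ± 0.321% in oral samples (SD, n = 5) and 5.63 ± 5.57% in intravenous samples (SD, n = 4; log2 −3.37, limma adjusted p = 0.132). Duncaniella averaged 0.384 ± 0.368% in oral samples and 4.66 ± 4.74% in intravenous samples (SD, n = 5 and 4; log2 −2.93, limma adjusted p = 0.332). CAG-485 was 24.7% of intravenous replicate 2 and at most 0.590% of the other intravenous samples, so its higher intravenous mean, 6.49 ± 12.2% (SD, n = 4) beside 0.316 ± 0.389% in oral samples (SD, n = 5), rested on 1 mouse (log2 −2.88, limma adjusted p = 0.332). Paramuribaculum likewise stood at 9.58% in intravenous replicate 5 and at 0.189% to 1.10% in the others (log2 −3.31, limma adjusted p = 0.0738). UBA3263 averaged 0.0584% in oral samples and 0.0864% in intravenous samples (limma adjusted p = 1). Among the minor Bacteroidales families, Odoribacter_865974 of Marinifilaceae averaged 0.0524% (log2 1.74, limma adjusted p = 0.617) and Alistipes_A_871400 of Rikenellaceae 0.0330% in oral samples (log2 1.59, limma adjusted p = 0.834), and both were listed at 0 in every intravenous sample.

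Outside the Bacteroidales, Ligilactobacillus and Parasutterella were lower in oral samples. Ligilactobacillus, a lactic acid bacterium, was at 0.0563%, 0.00700%, 0%, 0% and 0% in oral replicates 1 to 5 and at 0.814%, 0%, 0.148% and 2.58% in intravenous samples (log2 −3.89 ± 1.11, limma adjusted p = 0.00620). Intravenous replicate 2 held none and so overlapped the oral samples. The Ligilactobacillus call was lost without intravenous replicate 1 (adjusted p = 0.0638) or replicate 5 (adjusted p = 0.119). Parasutterella, a gut genus of Burkholderiales that uses few sugars, was at 0.107%, 0%, 0%, 0% and 0.107% in oral samples and at 0.989%, 2.79%, 0.746% and 0% in intravenous samples (log2 −3.83 ± 1.29, limma adjusted p = 0.0289). Its groups overlap at 0. The Parasutterella call was lost without Burkholderia (adjusted p = 0.234) and without each of oral replicates 2 to 4 and intravenous replicates 1, 2, and 3 and 4 (adjusted p of 0.0761 to 0.249).

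Escherichia_710834, a facultative anaerobe that often expands when other gut bacteria are lost, did not pass. It was at 5.57%, 1.82%, 11.9% and 0% in the intravenous samples and averaged 0.126 ± 0.168% in oral samples (SD, n = 5), a log2 difference of −4.28 ± 1.73 (limma adjusted p = 0.0896). Without intravenous replicate 5, which held none, the difference was −6.52 (adjusted p = 0.00470). Akkermansia, a mucin degrader, was listed at 0 in all intravenous libraries and averaged 0.0599 ± 0.0952% in oral samples (SD, n = 5; limma adjusted p = 1).

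**Figure D3:**
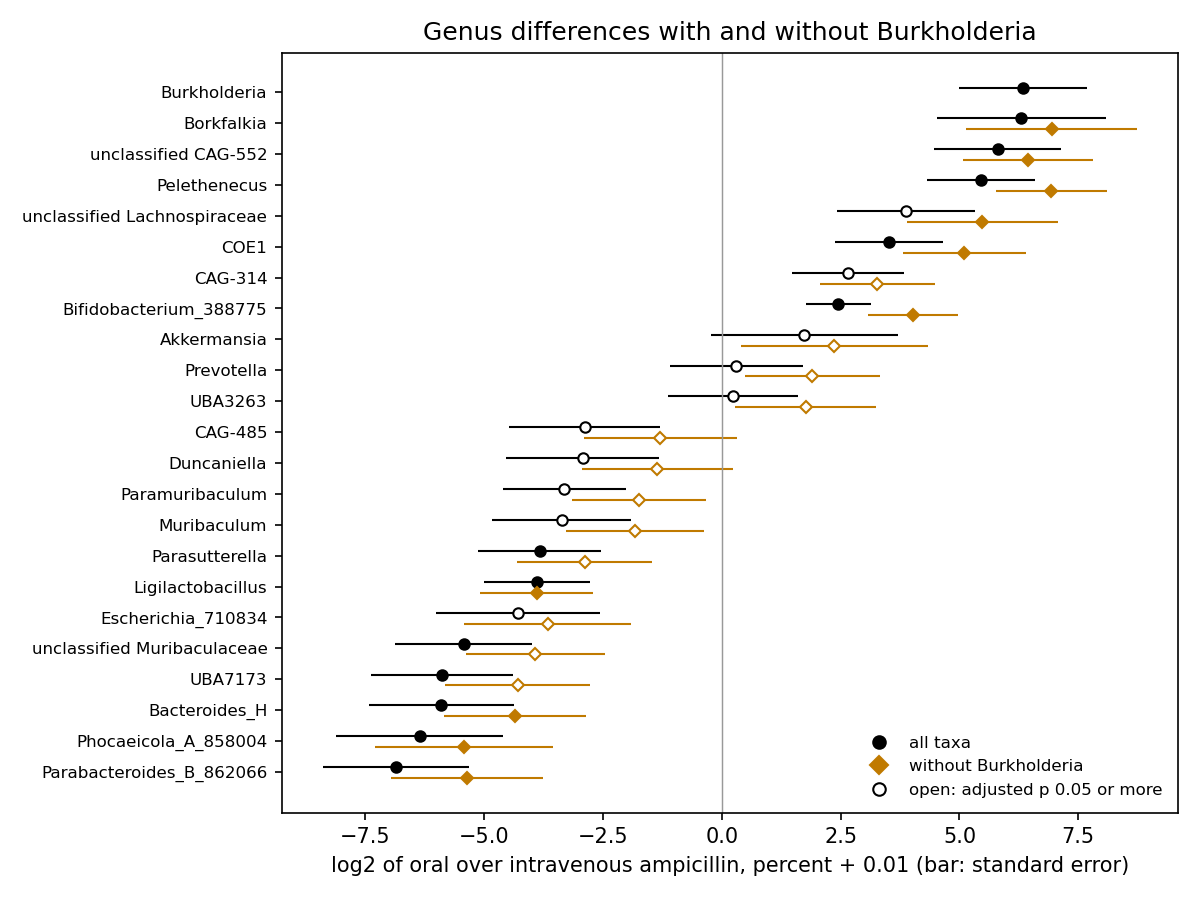
The log2 of oral over intravenous ampicillin, computed on percent + 0.01, for 23 genera, with bars of 1 standard error; circles use all taxa, diamonds leave out Burkholderia, and filled symbols have an adjusted p under 0.05. Removing Burkholderia shifts most genera to the right: UBA7173, unclassified Muribaculaceae and Parasutterella lose their filled symbol, and unclassified Lachnospiraceae gains one (adjusted p = 0.0138).

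Among families, 11 of 39 differed (28.2%), 6 higher (15.4%) and 5 lower (12.8%) in oral samples. Without Burkholderia 8 of 38 did (21.1%), 6 higher (15.8%) and 2 lower (5.26%), and within run ok122 alone 7 were higher and 2 lower. The higher families were Anaeroplasmataceae, Burkholderiaceae_A_580492, CAG-552, Lachnospiraceae, Bifidobacteriaceae and Borkfalkiaceae. The lower ones were Tannerellaceae, Muribaculaceae, Lactobacillaceae, Burkholderiaceae_A_595427 and Bacteroidaceae, of which Tannerellaceae (adjusted p = 0.00817) and Lactobacillaceae (adjusted p = 0.0235) also passed without Burkholderia. In the fit to the 9 ampicillin samples alone 3 families passed, namely Tannerellaceae (adjusted p = 0.00734), Lachnospiraceae and Muribaculaceae (both with adjusted p = 0.010). Oscillospiraceae and the related fermenters showed 0 higher and 0 lower of 14 genera, against 6 higher and 7 lower of all 95. Of these 14, 7 were present in an oral sample and 1 in an intravenous sample, against 59 and 26 of all 95.

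The mean Shannon index, which rises with the number and evenness of taxa, was lower by mouth. It was 0.850, 1.16, 0.681, 0.968 and 0.262 in oral replicates 1 to 5, against 1.91, 2.28, 2.36 and 1.73 in intravenous samples (natural log). Every oral sample was below every intravenous sample, with means of 0.784 ± 0.340 (SD, n = 5) and 2.07 ± 0.300 (SD, n = 4) and an exact permutation p of 0.0159, the smallest the design allows (adjusted over 6 measures, p = 0.0476). The size of this difference depended on how Burkholderia in 2 libraries was treated. Without it, oral replicates 3 and 5, left with 685 and 803 reads, reached 3.05 and 3.26, above all intravenous samples. Oral replicates 1, 2 and 4, which held at most 0.323% Burkholderia, stayed at 0.850, 1.15 and 0.949, below all of them. The means were then 1.85 ± 1.20 in oral samples (SD, n = 5) and 2.07 ± 0.302 in intravenous samples (SD, n = 4), with exact p = 0.746. At family level the difference was also smaller. Run ok122 alone, with 3 oral samples, gave a difference of −1.17 (exact p = 0.0571, the smallest possible there), and the other run held no intravenous sample.

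More taxa were listed in oral than in intravenous samples, 45.8 ± 17.2 (SD, n = 5) and 25.4 ± 2.14 (SD, n = 4), although the exact permutation test did not pass (p = 0.0794, adjusted p = 0.0952). At an equal 1000 reads per library the difference shrank to 2.28 taxa (exact p = 0.603). The most abundant genus held 76.6 ± 19.2% of the reads in oral samples (SD, n = 5) and 37.4 ± 14.6% in intravenous samples (SD, n = 4; exact p = 0.0476, adjusted p = 0.0952). Without Burkholderia these were 47.1 ± 28.5% in oral samples (SD, n = 5) and 37.4 ± 14.6% in intravenous samples (SD, n = 4), a difference of 9.65 points (exact p = 0.571). With all taxa that genus was Borkfalkia in 3 oral samples and Burkholderia in the others, whereas the 4 intravenous samples were led by Phocaeicola_A_858004, CAG-485, Bacteroides_H and UBA7173.

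**Figure D4:**
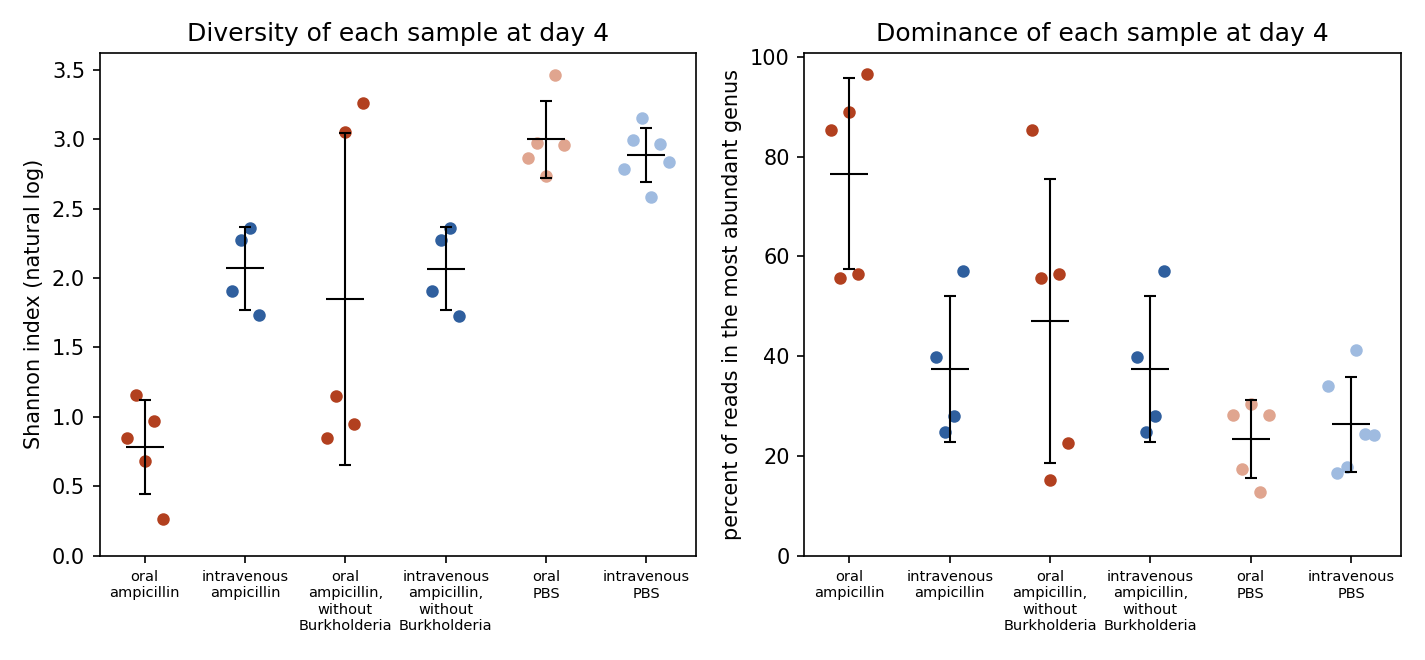
Shannon index (left) and percent of reads in the most abundant genus (right) of each day 4 sample, with the mean and SD in black; columns run oral ampicillin, intravenous ampicillin, both again without Burkholderia, oral PBS and intravenous PBS. The 5 oral ampicillin samples lie below the 4 intravenous ones in Shannon index with all taxa and on either side of them without Burkholderia.

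Whole communities were far apart between routes. The Bray-Curtis distance, which runs to 1 for samples that share nothing, averaged 0.966 between oral and intravenous samples (0.924 to 0.992 over 20 pairs), 0.663 among oral samples (0.0370 to 0.990 over 10 pairs) and 0.620 among intravenous samples (0.364 to 0.865 over 6 pairs). Route accounted for an R2 of 0.405 (exact permutation of route labels, p = 0.00794, the smallest possible, adjusted p = 0.0476). Without Burkholderia R2 was 0.374 (exact p = 0.0238, adjusted p = 0.119) and the distance between routes averaged 0.883 (0.657 to 0.992). Oral samples formed 2 pairs of near neighbours, replicates 2 and 4 at 0.0370 and replicates 3 and 5 at 0.0878. The distance to the group centroid averaged 0.476 in oral samples and 0.376 in intravenous samples (exact p = 0.206).

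The reads left in oral replicates 3 and 5 after removal of Burkholderia were unlike each other. In oral replicate 3 they were led by Borkfalkia (15.2%), Pelethenecus (12.1%), UBA7173 (8.91%) and Prevotella (8.18%). In oral replicate 5 they were led by Prevotella (22.5%), unclassified Lachnospiraceae (12.2%), UBA7173 (5.85%) and COE1 (5.60%), with Borkfalkia and CAG-552 listed at 0. The remainder of replicate 5 lay 0.437 from the mean of oral PBS mice in Bray-Curtis distance and that of replicate 3 lay 0.613 from it, against 0.911, 0.965 and 0.988 for oral replicates 1, 2 and 4. Intravenous libraries lay 0.537 to 0.847 from the mean of intravenous PBS mice.

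**Figure D5:**
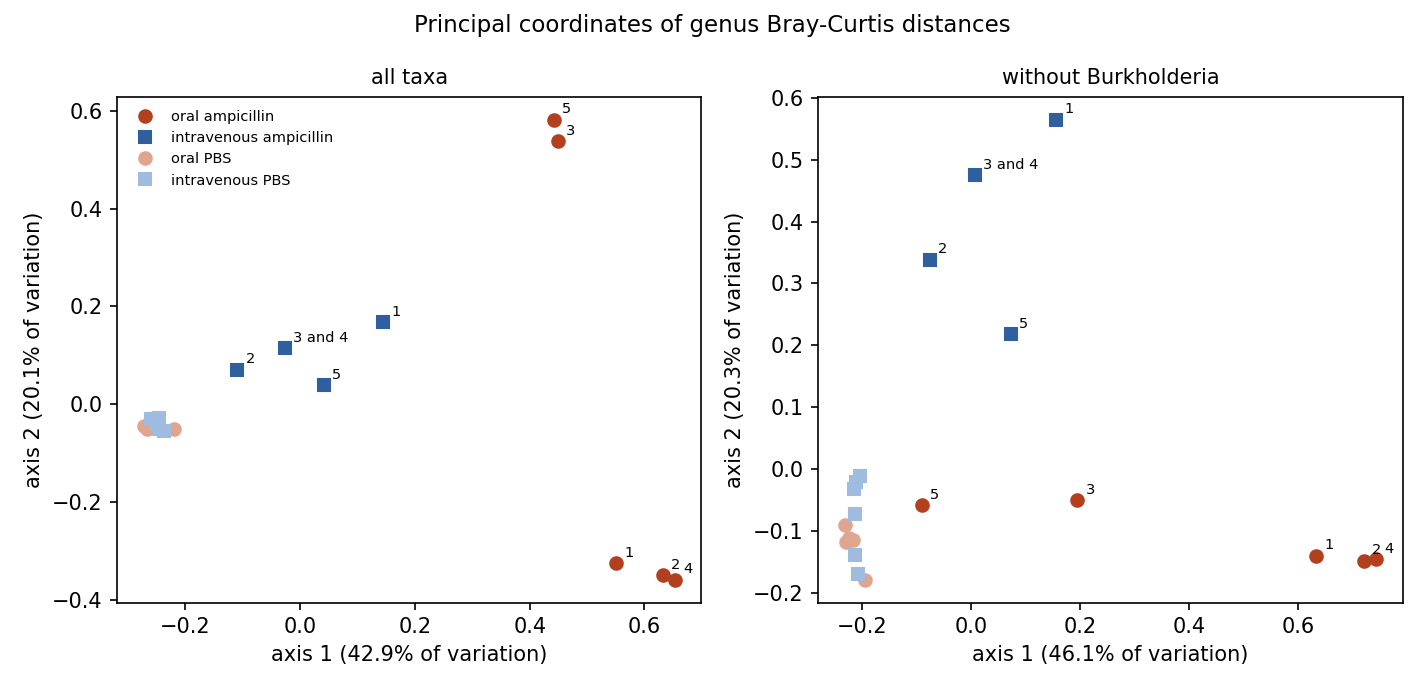
Principal coordinates of genus Bray-Curtis distances with all taxa (left) and without Burkholderia (right), with axes in arbitrary distance units and their share of variation in percent; numbers are the replicates of oral ampicillin (dark circles) and intravenous ampicillin (dark squares), and pale symbols are PBS mice. Oral replicates 1, 2 and 4 lie together in both panels, and oral replicates 3 and 5 lie apart at left and nearer to PBS mice at right.

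Without an antibiotic few differences between routes passed a test, in groups of 5 and 6 mice. More taxa were listed in oral PBS mice, 133 ± 31.8 (SD, n = 5), than in intravenous PBS mice, 103 ± 28.0 (SD, n = 6), with an exact permutation p of 0.130. All oral PBS libraries came from run ok122, while intravenous PBS replicates 4 to 6 came from the other run. Between oral and intravenous PBS mice 1 of 95 genera differed (1.05%), Velocimicrobium, named after its values were seen because it was the only call. The Shannon index was 3.00 ± 0.276 in oral PBS mice (SD, n = 5) and 2.89 ± 0.197 in intravenous PBS mice (SD, n = 6; exact permutation p = 0.485), and R2 was 0.159 (exact permutation p = 0.173). Before treatment, on day 0, mice of the oral and intravenous ampicillin groups differed by −0.00411 in Shannon index (exact p = 0.991, n = 6 each), with an R2 of 0.0422 (exact p = 0.747). The day 0 libraries were shallow, down to 242 reads, and over those with at least 1000 reads, thinned to that number, the difference turned to 0.425 (exact p = 0.321).

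With PBS of each route as the baseline, the effect of ampicillin itself differed by route in 7 of 95 genera (7.37%), 4 higher by mouth (4.21%) and 3 lower (3.16%). The split was 6 higher and 1 lower both without Burkholderia and within run ok122 alone, and 0 higher and 3 lower when thinned to 1000 reads. Relative to the intravenous effect, the oral effect on the log2 scale was 6.65 higher for Burkholderia (limma interaction contrast, adjusted p = 0.0182), 5.82 higher for unclassified CAG-552 (adjusted p = 0.0292) and 4.91 higher for Pelethenecus (adjusted p = 0.0292). The differences were −7.41 for Parabacteroides_B_862066 (limma adjusted p = 0.0182), −6.71 for Bacteroides_H (adjusted p = 0.0292) and −6.23 for Ligilactobacillus (adjusted p = 0.00683). Without Burkholderia, Parabacteroides_B_862066 (−5.90, limma adjusted p = 0.0892) and Bacteroides_H (−5.16, adjusted p = 0.118) no longer passed. The seventh genus, Velocimicrobium (3.34, limma adjusted p = 0.0312), was listed at 0 in oral PBS mice and averaged 0.165 ± 0.202% in intravenous PBS mice (SD, n = 6). Ligilactobacillus was listed at 0 in all intravenous PBS libraries and averaged 0.0446% in oral PBS mice. The corresponding value for Borkfalkia, 7.01, missed the threshold (limma adjusted p = 0.0511) but passed without Burkholderia (7.64, adjusted p = 0.0336). The count of 7 ran from 3 to 11 as single samples were left out: it was 3 without oral ampicillin replicate 2, intravenous ampicillin replicate 2 or intravenous PBS replicate 5, 4 without intravenous ampicillin replicate 1 or replicates 3 and 4 or oral PBS replicate 2, and 11 without intravenous ampicillin replicate 5. For the Shannon index the oral effect was −2.21 and the intravenous effect −0.818, a difference of −1.40 (exact permutation of route labels, p = 0.00385), which fell to −0.328 without Burkholderia (exact p = 0.595).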

How the data were processed

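Fecal DNA was amplified over the V4 region of the 16S rRNA gene (30 to 35 PCR cycles), per the labels' protocols. The authors deposited, per the file headers, a signal for 488 taxa (7 ranks), scaled so that each library sums to 100000. The taxonomy tool is not given in the sources used here. Empty cells were read as 0, and reads per library were recovered from the smallest step between values. Percent of reads was summed by genus (316), family (107) and phylum (17). Genera and families present in at least 20% of 89 day 4 samples were tested with limma 3.58.1 (R 4.3.3) on log2(percent + 0.01), with 1 mean per antibiotic and route and a variance trend. The 89 samples come from 91 day 4 libraries, since 1 pair of intraperitoneal vancomycin replicates was averaged besides the intravenous ampicillin pair. Such log2 differences understate changes of rare taxa. Phyla, Shannon index, richness and dominance were tested by two-sided exact permutation. For Bray-Curtis composition the exact permutation p is the share of relabellings with an R2 at least as large. P-values were adjusted by Benjamini-Hochberg with a threshold of 0.05. Those of limma rest on a spread shared by all 18 day 4 groups, and those of exact permutation on the samples compared. Neither kind measures more than the spread between samples of this series. Members and taxon lists were chosen with earlier results of these data known. Genera named were those past the threshold, the most abundant of either group and of day 0, the leading genus of each sample, a preset list and those with the largest differences by route.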

Additional observations from a re-analysis of the deposited data

Results flagged for a closer look

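Single samples far from the rest of their group were found in 8 of 54 groups examined, where chance flags about 1 in 20 if values are normally distributed; percentages with many zeros are not. In intravenous samples these were Burkholderia at 0.0773%, Borkfalkia at 3.59% and Paramuribaculum at 9.58% in replicate 5, Phocaeicola_A_858004 at 39.8% in replicate 1, and CAG-485 at 24.7% and UBA3263 at 0.304% in replicate 2. In oral samples they were Ligilactobacillus at 0.0563% in replicate 1 and Akkermansia at 0.225% in replicate 3. Intravenous replicate 5 accounts for 3 of them. It was also the intravenous sample without Phocaeicola_A_858004, Escherichia_710834 and Parasutterella, and with Bacteroides_H at 0.185%.

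The effect of ampicillin against PBS of the same route differed between oral and intravenous mice, by the test of the difference itself, in the Shannon index (−1.40) and, on the log2 scale, in Burkholderia (6.65), unclassified CAG-552 (5.82), Pelethenecus (4.91), Parabacteroides_B_862066 (−7.41), Bacteroides_H (−6.71) and Ligilactobacillus (−6.23). Without Burkholderia the Shannon value was −0.328 (exact permutation p = 0.595). Parabacteroides_B_862066 (−5.90, limma adjusted p = 0.0892) and Bacteroides_H (−5.16, limma adjusted p = 0.118) then no longer passed either. Causes were not tested.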

How the results depend on the processing

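The Shannon difference of −1.28 was −0.217 without Burkholderia, −0.223 without reagent, skin and food taxa and −0.187 at family level. None of these passed. It was −1.17 in run ok122 alone and, chosen after seeing the data, −1.08 without oral replicates 3 and 5. With 3 oral samples neither of these settings could pass, since the smallest possible exact permutation p was 0.0571. Leaving out single samples gave −1.40 to −1.15, with exact permutation adjusted p of 0.0536 to 0.107 from fewer samples. R2 was 0.374 without Burkholderia and without reagent taxa, 0.431 in run ok122, 0.640 without oral replicates 3 and 5 and 0.360 to 0.465 without single samples. The difference by route in the Shannon effect was −0.328, −0.334 and −0.422 without Burkholderia, without reagent taxa and at family level. Dominance differed by 9.65 without Burkholderia; it differed by 41.1 and 2 phyla passed with intravenous replicates 3 and 4 kept separate. Spread differed by 0.170 with Jaccard distances and by −0.208 without oral replicates 3 and 5.

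Genera called numbered 8 to 14 without single samples (8 without intravenous replicate 1), 10 without oral replicates 3 and 5 and 2 in the fit to the 9 ampicillin samples (families 3; 8 to 13 without single samples). Correlations by replicate number were −0.291 to 0.0766, which cannot show whether the numbers pair the mice, since differently numbered samples were not set beside them. With the replicate number as a block 1 genus and 2 families were called. Genera whose effect differed by route numbered 3 thinned to 1000 reads, 4 with a pseudocount of 0.001%, 11 as centred log ratios and 3 to 11 without single samples. Between PBS routes 0 genera were called when thinned, with a pseudocount of 0.1% or at presence in 50% of samples, against 3 with 0.001%, 2 with no filter and 1 to 3 without single samples; 7 genera had an unadjusted p under 0.05. Of the calls, 60% were higher in oral samples without Burkholderia and 30.8% when thinned, beside 46.2% in the main fit.

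Signs turned for Prevotella (−0.160 with replicates 3 and 4 separate and with the replicate block; −0.829 to 1.17 without single samples), for UBA3263 (−0.0410 with a pseudocount of 0.1%, −0.158 without oral replicates 3 and 5, −0.452 to 1.21 without single samples), for the day 0 Shannon difference (0.425 thinned, 0.439 over libraries of at least 1000 reads, −0.199 to 0.112 without single samples) and for the PBS Shannon difference (−0.00513 to 0.177). Causes were not tested. Depth limits oral replicates 3 and 5 without Burkholderia (685 and 803 reads) and intravenous replicate 2 (3621 reads).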

Other observations

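Intraperitoneal ampicillin, with 2 day 4 libraries, was no side of the comparison. Borkfalkia made up 21.7% and 89.6% of these libraries, unclassified CAG-552 7.17% and 7.45%, Pelethenecus 3.83% and 2.00%, and CAG-314 25.9% and 0.117%. Bacteroides_H was at 1.41% and 0%, while Parabacteroides_B_862066 and Phocaeicola_A_858004 were listed at 0 in both. Burkholderia was at 8.49% and 0.0656%. In Bray-Curtis distance the nearest oral ampicillin library lay at 0.631 from the first and 0.118 from the second, and the nearest intravenous ampicillin library at 0.916 and 0.960.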
